A study of Mus musculus with 12 samples.

Results

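The genes described here are the 10 members of the E2F and retinoblastoma families E2f1, E2f2, E2f3, E2f4, E2f5, E2f7, E2f8, Rb1, Rbl1 and Rbl2, taken by symbol from the 45792 genes of the deposited tables. All 10 were found, and all 10 were among the 15706 genes with enough reads to test. E2F transcription factors and pocket proteins form the switch that lets a cell pass from G1 into S phase. The pocket proteins pRb (Rb1), p107 (Rbl1) and p130 (Rbl2) hold E2Fs in check until cyclin-dependent kinases phosphorylate them, and free activator E2Fs then switch on the genes of DNA replication. In cells that have left the cycle, p130 with E2F4 or E2F5 and the MuvB core make up the DREAM complex, which keeps cell cycle genes silent. In the developing forebrain this switch is known for its part in the exit of neural progenitors from the cycle.

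RNA was measured in 12 cultures of primary neural stem cells (NSCs), the self-renewing precursors of neurons and glia, grown from the forebrain of 1 to 2 day old mouse pups. There were 4 libraries per group, and total expected counts ran from 18201622 to 34086554. The first group was WT (C57BL/6J) NSCs without treatment. The other groups were Ncf1-/- NSCs, from mice backcrossed to C57BL/6J, which lack the gene of the NADPH oxidase subunit p47phox. They were given vehicle (4 cultures, labelled as having no treatment) or recombinant mouse Igfbp2, an insulin-like growth factor binding protein, at 100 ng/ml (4 cultures). This is the dose in the labels, and the study's methods name a lower one. Igfbp2 was added 48 h after plating and RNA was taken 48 h later, in serum-free medium that held EGF, FGF, insulin and B-27. WT cultures with Igfbp2 were not analysed here, so an effect of Igfbp2 could be examined only in Ncf1-/- cells. The comparisons share libraries, since each of the 3 groups enters 2 of the 3 comparisons.

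Several properties of the libraries bear on the results. Ncf1 itself had 2 to 7 counts in WT, 2 to 4 with vehicle and 1 in each library with Igfbp2, so the genotype could not be checked from its reads. The summed level of 4 Y-linked genes was 105 to 116 CPM (counts scaled to a common library size by TMM) with vehicle, 7.79 to 9.18 CPM with Igfbp2, 106.8 to 118 CPM in WT replicates 1 to 3 and 6.46 CPM in WT replicate 4. Xist, the RNA of the inactive X chromosome, was at 72.3 to 87.8 CPM with vehicle, 165.7 to 274.6 CPM with Igfbp2, 3.87 to 5.22 CPM in WT replicates 1 to 3 and 290.8 CPM in WT replicate 4, so the vehicle libraries also differed from WT replicates 1 to 3. The study describes the vehicle and Igfbp2 cultures as paired cultures of the same animals, and these levels do not match that description. A second sample sheet among the study's supplementary material lists WT replicate 4 as treated with apocynin, a NADPH oxidase inhibitor, whereas its label gives no treatment. Therefore, the counts of members are also given without it. The WT cultures differed among themselves. The summed level of 12 oligodendrocyte lineage markers was 13104, 13272, 3846 and 8375 CPM in WT replicates 1 to 4, against 2249 to 2418 CPM with vehicle and 2319 to 2403 CPM with Igfbp2. Of the 12 markers, 10 fell and 2 rose in vehicle-treated Ncf1-/- against WT, with a median log2 fold change of -3.81. The summed level of 10 neural stem cell markers was 2642, 2763, 8346 and 3933 CPM in WT, 8113 to 8887 CPM with vehicle and 8214 to 8621 CPM with Igfbp2. That sum does not stand for most of its list. Of the 10 markers, 3 rose and 6 fell in vehicle-treated Ncf1-/- against WT, with a median log2 fold change of -0.36. Of all genes, 28.9% rose and 28.2% fell. Among the markers, Nes rose (log2 fold change of 1.92) whereas Sox2 fell by 0.97 on the log2 scale. The summed level of 8 astrocyte markers was 7359 to 13139 CPM in WT, 3246 to 3800 CPM with vehicle and 3540 to 4729 CPM with Igfbp2. In bulk RNA, fewer cells of a type and less RNA per cell cannot be told apart, and the part that this makeup has in the results on the members was not tested.

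Promoters of the members are shown first, since E2F genes are themselves known targets of E2F and DREAM. RefSeq promoter windows (GRCm38.p6, 250 bases before to 50 after the start of transcription) were at hand for 7 of the 10 genes, and not for E2f4, E2f5 and Rb1. They were searched on both strands for the E2F site letters TTTCCCGC, TTTGGCGC, TTTCGCGC and TTTGCCGC, and for the cell cycle homology region (CHR, the site that the MuvB core binds) as TTTGAA. At least 1 of the E2F letter strings stood in 2.26% and the CHR letters in 17.9% of all 32851 windows. Stretches with matches upstream of the start are given for the 3 genes with E2F letters there and for E2f8. The stretches with the upstream CHR letters of Rbl2 and of the second E2f2 window are not shown. Those given run 5′ to 3′ on the strand of the gene, with the matches in capitals:
E2f3 (chr13:29986064-29986126, minus strand): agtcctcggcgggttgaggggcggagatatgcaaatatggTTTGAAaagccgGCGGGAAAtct
E2f7 (chr10:110745201-110745288, plus strand): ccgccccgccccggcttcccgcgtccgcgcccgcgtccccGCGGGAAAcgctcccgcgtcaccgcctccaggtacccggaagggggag
E2f8 (chr7:48881597-48881656, minus strand): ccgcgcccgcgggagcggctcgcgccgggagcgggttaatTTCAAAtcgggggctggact
Rbl1 (chr2:157204535-157204592, minus strand): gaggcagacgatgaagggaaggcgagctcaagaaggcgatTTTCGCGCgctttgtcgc
E2F letters thus stood in E2f3, E2f7 and Rbl1, and in E2f2 with TTTGGCGC after its start. CHR letters stood in E2f3 and E2f8, in Rbl2 at -201 and in a second window of E2f2. The window of E2f1 held none of these letters. Its start lies 466 bases inside the gene as GENCODE M21 draws it, so it does not cover the annotated start of that gene. A match describes letters only, and binding was not measured.

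In WT NSCs the members fell into a higher and a lower group when compared per length as TPM (transcript abundance within a library). Rb1 (11.3 ± 2.22 TPM, SD, n = 4), Rbl2 (10.7 ± 1.999 TPM), E2f4 (10.6 ± 1.34 TPM), E2f3 (9.50 ± 2.57 TPM) and E2f5 (6.03 ± 1.57 TPM) were the 5 highest, and each overlapped its neighbour in this order. E2f5 was above E2f8 (2.38 ± 0.311 TPM) in all 4 WT libraries with no overlap of the values, and below E2f8 came Rbl1 (1.97 ± 0.320 TPM), E2f1 (1.41 ± 0.393 TPM), E2f7 (1.25 ± 0.343 TPM) and E2f2 (0.773 ± 0.220 TPM), which again overlapped their neighbours. Thus, the highest members in WT were the pocket proteins pRb and p130 and the E2Fs known to pair with p130, together with E2f3. In vehicle-treated Ncf1-/- NSCs no gap remained in the order, since every gene overlapped the next from E2f4 (10.2 ± 0.724 TPM) to E2f2 (2.58 ± 0.392 TPM). Rb1 (7.14 ± 1.86 TPM) and Rbl1 (7.14 ± 1.04 TPM) stood side by side there. The same lack of a gap held with Igfbp2, from E2f4 (8.09 ± 1.89 TPM) to E2f2 (1.57 ± 0.555 TPM). TPM values were not compared between groups, because a few short structural RNAs took 56.0% to 72.3% of the TPM of a library. Levels between groups were compared as TMM-scaled CPM.

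Ncf1-/- NSCs with vehicle were compared with WT NSCs to describe how this switch differs between them. Xist was at 72.3 to 87.8 CPM with vehicle and 3.87 to 5.22 CPM in WT replicates 1 to 3. For those libraries, genotype and that difference cannot be told apart. Of the 10 members, 8 passed the test (edgeR quasi-likelihood test, Benjamini-Hochberg adjusted over 15706 genes), beside 57.2% of all genes tested. E2f1, E2f2, E2f5, E2f7, E2f8 and Rbl1 rose, where 28.9% of all genes rose, and Rb1 and Rbl2 fell, where 28.2% of all genes fell. The median log2 fold change was 1.01 over the members and 0.02 over all genes. Values of 8 members did not overlap between the groups (51.2% of all genes), with 6 higher (26.1% of all genes) and 2 lower (25.0% of all genes). The 2 lower ones were Rbl2 and E2f4, which did not pass the test, whereas values of Rb1 overlapped. Both activators and repressors were therefore among the genes that rose. Without WT replicate 4 the count was 8 as well, with 6 higher.

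**Figure D1:**
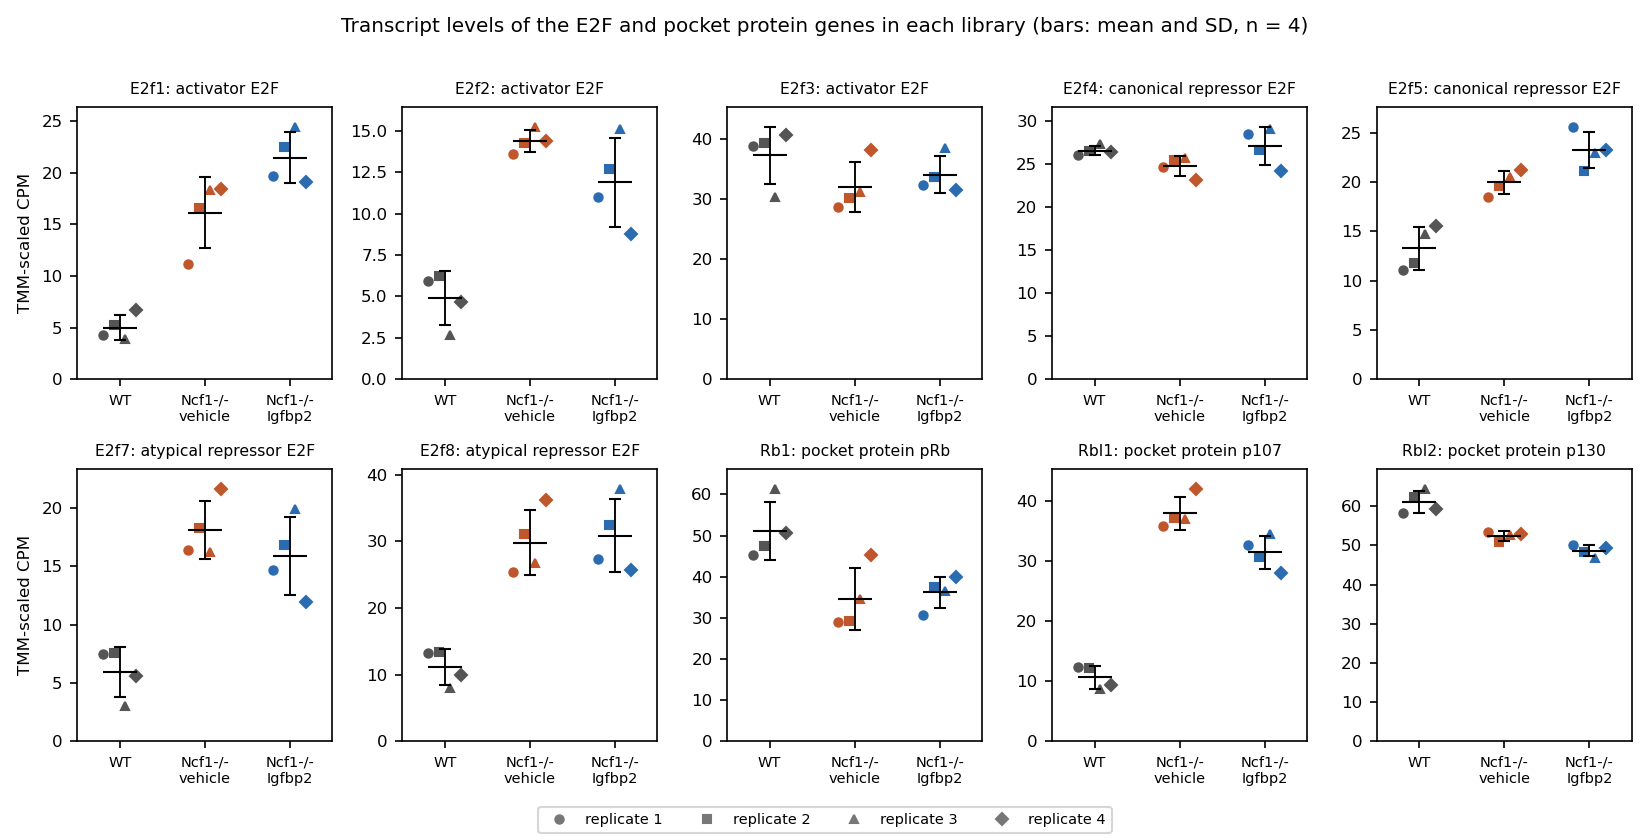
Levels of the 10 members in TMM-scaled CPM (vertical axes, from 0) in the 12 libraries, by group, with a symbol per replicate and the mean and SD of 4 libraries as bars. The WT libraries lie below all Ncf1-/- libraries for E2f1, E2f2, E2f5, E2f7, E2f8 and Rbl1, and above them for Rbl2.

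Among the activators, E2f1 and E2f2 rose and E2f3 did not pass the test. E2f1 (chromosome 2, 154559407 to 154569892, GRCm38), an activator that drives S phase genes and is also known to induce apoptosis, was at 4.28, 5.24, 3.87 and 6.68 CPM in WT and at 11.2, 16.6, 18.3 and 18.5 CPM with vehicle. The groups did not overlap, and vehicle replicate 1 was the lowest of its group. E2f1 was 3.25-fold higher with vehicle (log2 fold change 1.70 ± 0.19, standard error, adjusted p = 7.63e-06). E2f2 (chromosome 4, 136172394 to 136196057), a close relative of E2f1, was at 5.96, 6.26, 2.70 and 4.68 CPM in WT and at 13.6, 14.3, 15.2 and 14.4 CPM with vehicle. All 4 vehicle values lay within a narrow range above the WT values, among which replicate 3 was the lowest. E2f2 was 2.97-fold higher (1.57 ± 0.23 on the log2 scale, adjusted p = 6.46e-05).

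E2f3 (chromosome 13, 29906575 to 29986063), the activator with the highest level in WT, was at 38.8, 39.3, 30.2 and 40.5 CPM in WT and at 28.7, 30.04, 31.1 and 38.1 CPM with vehicle. The groups overlapped through WT replicate 3, the lowest WT library, and through vehicle replicate 4, the highest of its group. The log2 fold change was -0.22 ± 0.11 (edgeR adjusted p = 0.124). E2f3 passed the test as lower without WT replicate 3 (log2 fold change -0.30, adjusted p = 0.0210) and without vehicle replicate 4 (-0.35, adjusted p = 0.0167), so the call for this gene depends on single libraries.

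Of the canonical repressors E2F4 and E2F5, which lack a strong nuclear signal of their own and act with pocket proteins, E2f5 rose and E2f4 did not pass the test. E2f4 (chromosome 8, 105297663 to 105305370) was at 26.1, 26.6, 27.3 and 26.4 CPM in WT and at 24.7, 25.5, 25.7 and 23.2 CPM with vehicle. The values did not overlap, but they were close. The log2 fold change of -0.10 ± 0.07 did not pass the test (edgeR adjusted p = 0.251). E2f4 had the smallest spread among WT libraries of the 10 genes, with a coefficient of variation of 2.01%. E2f5 (chromosome 3, 14578641 to 14606309) was at 11.1, 11.8, 14.7 and 15.6 CPM in WT and at 18.5, 19.6, 20.5 and 21.2 CPM with vehicle. It was higher in every vehicle library than in every WT library, with a log2 fold change of 0.59 ± 0.11 (adjusted p = 0.000577).

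The atypical repressors E2F7 and E2F8 bind DNA without a DP partner (Tfdp1 or Tfdp2) and are known to turn E2F targets down again late in S phase. E2f7 (chromosome 10, 110745439 to 110787384) was at 7.504, 7.61, 3.04 and 5.62 CPM in WT and at 16.4, 18.3, 16.3 and 21.6 CPM with vehicle. The groups did not overlap, and the fold change was 3.09 (log2 1.63 ± 0.25, edgeR adjusted p = 9.18e-05). E2f8 (chromosome 7, 48866429 to 48881596) was at 13.3, 13.4, 7.97 and 10.02 CPM in WT and at 25.3, 31.1, 26.7 and 36.2 CPM with vehicle. Its fold change was 2.68 (log2 1.42 ± 0.18, adjusted p = 2.26e-05). For both genes WT replicate 3 was the lowest and vehicle replicate 4 the highest of these 8 libraries. The non-coding gene Gm2788 overlaps 11.2% of the exonic bases of E2f8 on the opposite strand. It did not pass the filter on low counts.

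Pocket protein genes moved in opposite directions. Rbl1 (p107; chromosome 2, 157145893 to 157204534), the pocket protein known to be made mainly in cycling cells, was at 12.3, 12.2, 8.66 and 9.46 CPM in WT and at 35.9, 37.1, 37.0 and 42.0 CPM with vehicle. Rbl1 was 3.57-fold higher, without overlap of the groups (log2 1.84 ± 0.12, edgeR adjusted p = 1.12e-07). Rb1 (chromosome 14, 73183673 to 73325822), the retinoblastoma tumour suppressor, was at 45.2, 47.4, 61.3 and 50.6 CPM in WT and at 29.1, 29.3, 34.7 and 45.2 CPM with vehicle. Vehicle replicate 4 reached the lowest WT library, and the other vehicle libraries lay below all WT libraries.

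Rb1 fell by 0.56 on the log2 scale (standard error 0.14, edgeR adjusted p = 0.00463), whereas an exact permutation test over the libraries gave p = 0.0571 (two-sided), the smallest possible being 0.0286. Rbl2 (p130; chromosome 8, 91070057 to 91123844), the pocket protein that prevails in resting cells, was at 58.2, 62.3, 64.4 and 59.4 CPM in WT and at 53.5, 50.7, 52.6 and 52.8 CPM with vehicle. The groups did not overlap, and Rbl2 fell by 0.22 on the log2 scale (standard error 0.06, adjusted p = 0.00769). This small difference was -0.04 (adjusted p = 0.630) when library totals replaced the TMM factors, where the median of all genes moved to 0.19. Exons of both genes overlap protein-coding genes on the opposite strand, and the sources used here do not state whether reads were counted by strand. Aktip, which overlaps 9.17% of the exonic bases of Rbl2, fell by 0.35 on the log2 scale. Lpar6 and Rcbtb2, which overlap 6.78% and 8.11% of those of Rb1, had log2 fold changes of 1.73 and 0.16.

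**Figure D2:**
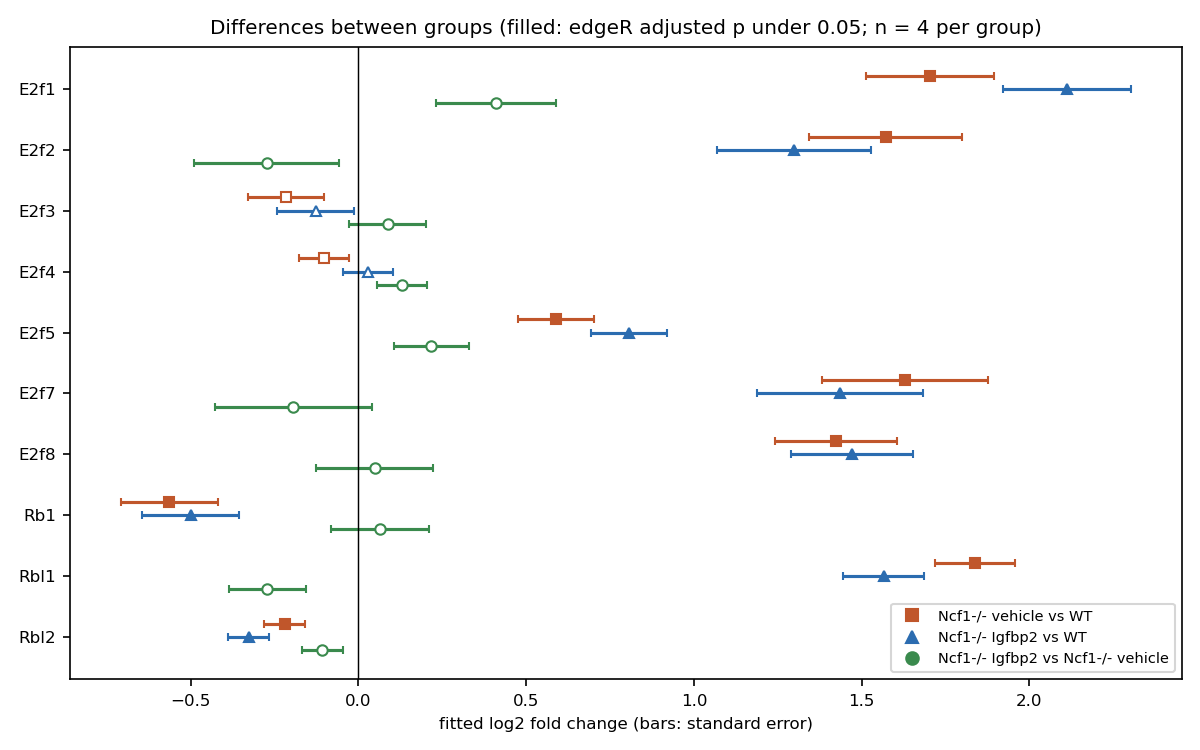
Fitted log2 fold changes (horizontal axis) of the 10 members in the 3 comparisons, with the standard error as bars and filled symbols where the edgeR adjusted p was under 0.05. Both contrasts with WT hold 8 filled symbols each, and the contrast of Igfbp2 with vehicle holds 0.

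The makeup of each class was then described within libraries as shares of summed TPM, with no test. E2f1 and E2f2 together made up 15.5%, 21.1%, 21.4% and 18.0% of the TPM of the 3 activators in WT, and 45.6%, 48.0%, 52.8% and 48.5% with vehicle. E2f3 therefore held most of the activator transcripts in every WT library. E2f7 and E2f8 made up 18.3% ± 4.89 (SD, n = 4) of the TPM of the 4 repressor E2Fs in WT and 34.2% ± 3.25 with vehicle, without overlap. Rbl1 made up 8.48% ± 2.38 of pocket protein TPM in WT and 29.4% ± 1.46 with vehicle, while Rb1 went from 47.0% ± 2.96 to 29.0% ± 3.40.

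By contrast, the ratio of activator to repressor E2F transcripts overlapped between the groups, at 0.698, 0.592, 0.354 and 0.701 in WT and 0.481, 0.502, 0.496 and 0.528 with vehicle. WT replicate 3 was below and the other WT libraries above all vehicle libraries. The ratio of E2f1 to Rb1 TPM was 0.128 ± 0.0395 in WT and 0.668 ± 0.119 with vehicle. These shares rest on the transcript lengths that RSEM weights by isoform, which for E2f3 ran from 2556 to 4098 bases among the WT libraries.

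**Figure D3:**
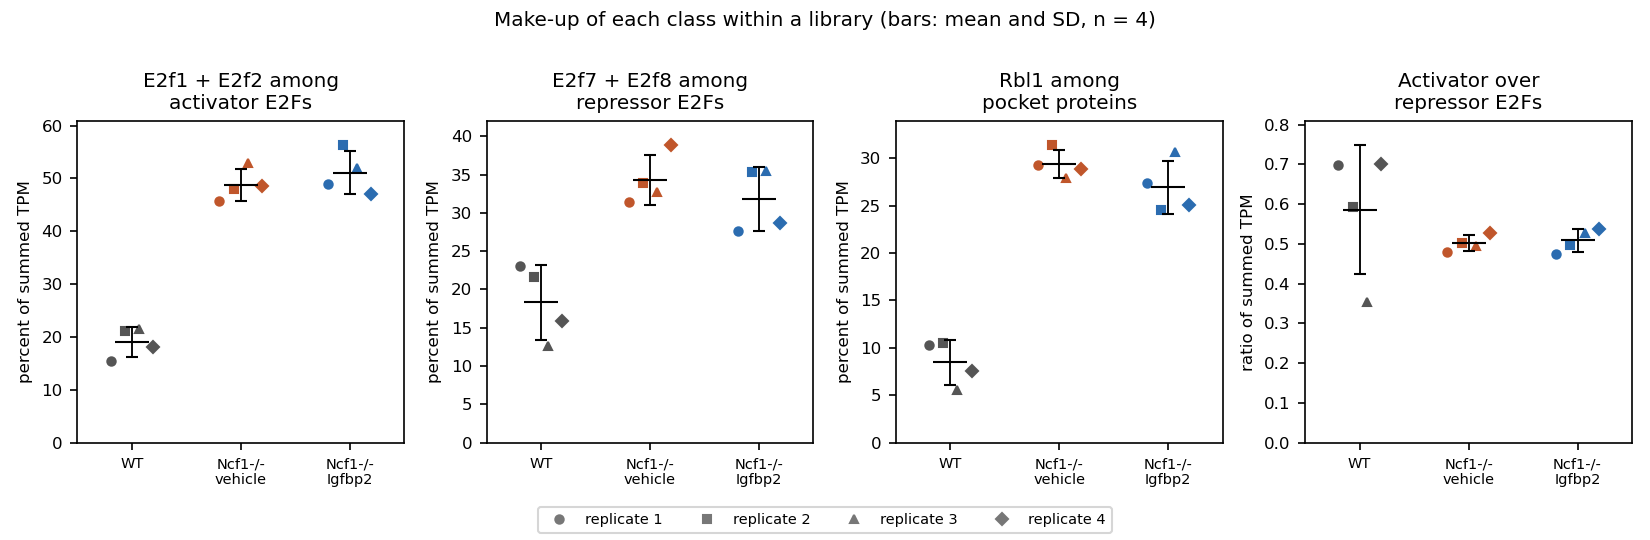
Shares and a ratio of summed TPM within each library (vertical axes, in percent or as a ratio, from 0) by group, with a symbol per replicate and mean and SD of 4 libraries as bars. The shares of E2f1 with E2f2, of E2f7 with E2f8 and of Rbl1 are higher in all Ncf1-/- than in all WT libraries, while the ratio of activators to repressors overlaps.

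The rest of the pathway was described with lists written from general knowledge, which hold none of the 10 members. All 3 genes of the dimer partner list rose in vehicle-treated Ncf1-/- NSCs against WT. They were the partners Tfdp1 (log2 fold change 0.43) and Tfdp2 (0.27), and E2f6 (0.58), an E2F that represses without pocket proteins. Of these 3, 2 passed the test without WT replicate 4, and 2 in limma on log2(TPM + 1). In limma without the short structural RNAs, 1 passed. Of 8 genes of the DREAM and MuvB complexes and their regulators, 5 rose, 1 fell and 2 did not pass the test, with a median log2 fold change of 0.54. Of all genes, 28.9% rose and 28.2% fell in this contrast. The highest were Mybl2 (1.63 ± 0.25) and Foxm1 (1.52 ± 0.20), which join the MuvB core to switch on mitotic genes. Dyrk1a, the kinase that starts DREAM assembly by phosphorylating LIN52, fell by 0.44 on the log2 scale, and Lin52 had a log2 fold change of -0.23 (edgeR adjusted p = 0.0744).

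Of 9 cyclins and kinases that phosphorylate pocket proteins, 8 rose and 0 fell, with a median of 1.35, beside 28.9% and 28.2% of all genes. Ccnd1, the cyclin partner of CDK4 and CDK6, rose from 67.0 ± 11.4 to 533 ± 123 CPM (SD, n = 4; log2 fold change 2.99), and Ccna2, the S phase cyclin, by 2.43 on the log2 scale. Cdk4 rose by 0.41 on the log2 scale, and Ccnd3 had a log2 fold change of 0.13 (edgeR adjusted p = 0.274). Of 7 CDK inhibitors, 4 rose and 1 fell, beside the same 28.9% and 28.2% of all genes. Cdkn1a (p21) rose by 1.44 and Cdkn2c (p18) by 0.99 on the log2 scale, whereas Cdkn1c (p57), known for its part in cell cycle exit, fell from 70.2 ± 31.0 to 9.46 ± 2.62 CPM (log2 fold change -2.89). Cdkn2b (p15) had a log2 fold change of -0.31 (adjusted p = 0.113).

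Target genes rose together, where 28.9% of all genes rose. All 34 genes of the G1/S list, which E2Fs are known to switch on, were higher in vehicle-treated Ncf1-/- NSCs (median log2 fold change 1.45), with the thymidine kinase Tk1 (2.81) and the ribonucleotide reductase subunit Rrm2 (2.48) at the top and the phosphatase Cdc25a (0.54) and the methyltransferase Dnmt1 (0.45) at the bottom. All 24 genes of the G2/M list, which DREAM is known to silence, were higher as well (median 1.94), from Ccnb2 (2.53) and Cdk1 (2.42) to Cenpe (1.43) and Mki67 (1.28). The log2 fold changes of E2f1, E2f2, E2f7, E2f8 and Rbl1, from 1.42 to 1.84, lay within the range of these targets. Without WT replicate 4, 33 of the G1/S and 24 of the G2/M genes passed the test.

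Of 7 apoptotic targets of E2F1, 6 could be tested, of which 4 rose and 1 fell, where 28.9% of all genes rose and 28.2% fell. Pmaip1 (Noxa) rose by 1.83 on the log2 scale, Bcl2l11 (Bim) fell by 0.63 and Bbc3 (Puma) had a log2 fold change of -0.19 (edgeR adjusted p = 0.211). Among WT libraries, replicate 3 had the lowest G1/S sum (717 CPM, against 864 to 1138 CPM in the others), as it had the lowest level of E2f1, E2f2, E2f3, E2f7, E2f8 and Rbl1 and the highest level of Rb1 and Rbl2. The G2/M sum was lowest in WT replicate 4 (525 CPM), close to the 533 CPM of replicate 3. Replicate 3 was also the WT library with the fewest oligodendrocyte lineage transcripts and with an astrocyte marker sum of 13139 CPM.

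**Figure D4:**
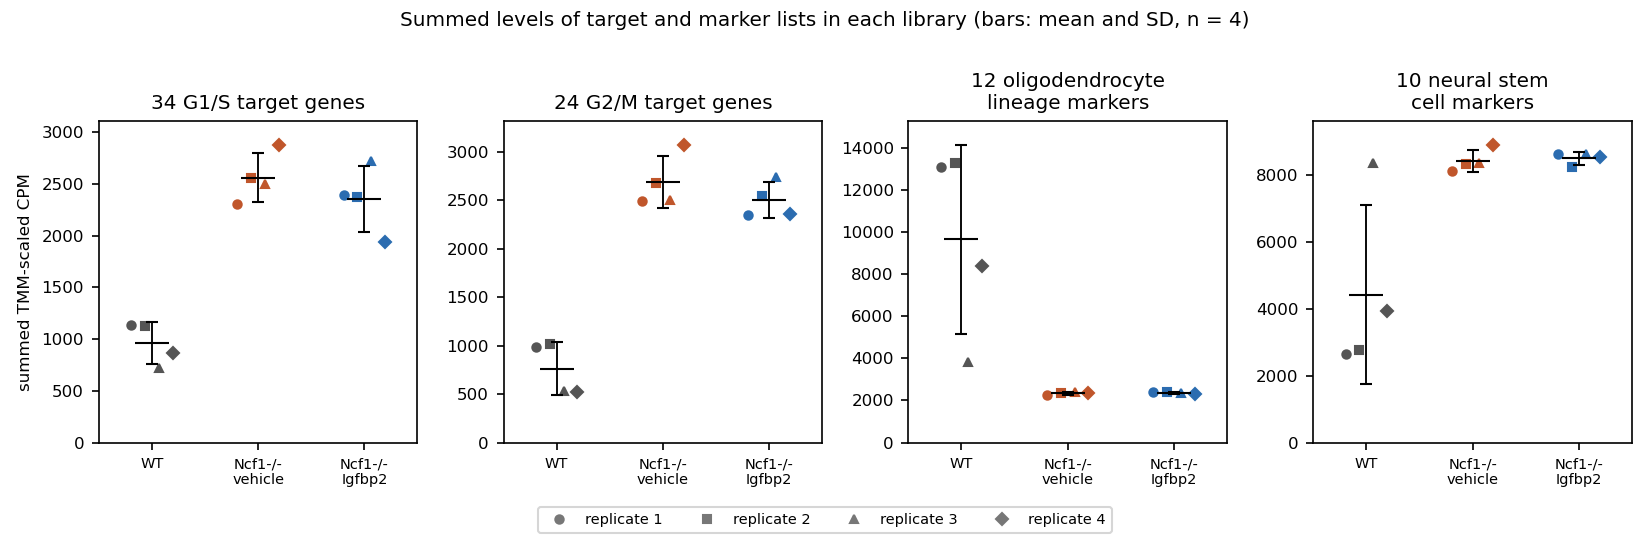
Summed TMM-scaled CPM (vertical axes, from 0) of the G1/S and G2/M target lists and of the oligodendrocyte lineage and neural stem cell marker lists, by group, with a symbol per replicate and mean and SD of 4 libraries as bars. The G1/S sums are 717 to 1138 CPM in WT, 2302 to 2875 CPM with vehicle and 1939 to 2717 CPM with Igfbp2, and the marker sums differ most among the WT libraries.

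Ncf1-/- NSCs treated with Igfbp2 were compared with those given vehicle to learn whether the treatment shifts the same switch. None of the 10 members passed the test, with 0 called by edgeR and 0 by DESeq2, and 2 had an unadjusted p under 0.05 (E2f1 and Rbl1). Of all genes, 25.0% passed (3923 genes). That count was 2320 and 2294 without vehicle replicates 1 and 2, and 2550 without Igfbp2 replicate 2. The median log2 fold change of the members was 0.06, against 0.04 over all genes. Without WT replicate 4, which takes part in the estimate of the spread, 0 members passed as well. Values of 3 members did not overlap between the treatments, beside 34.1% of all genes. E2f1 was higher (19.3% of all genes) and Rbl1 and Rbl2 were lower with Igfbp2 (14.7% of all genes).

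E2f1 was at 19.7, 22.5, 24.4 and 19.1 CPM with Igfbp2, so that each library was above the highest vehicle value of 18.5 CPM. The log2 fold change was 0.41 ± 0.18 (edgeR adjusted p = 0.107). Rbl1 was at 32.6, 30.6, 34.5 and 28.1 CPM, below the lowest vehicle value of 35.9 CPM, with a log2 fold change of -0.27 ± 0.11 (adjusted p = 0.0976). Under the pairing by animal that the study states, which the Y-linked genes do not match, both passed the test (E2f1 0.38, adjusted p = 0.0277, and Rbl1 -0.32, adjusted p = 0.0215). Rbl2, at 50.2, 48.3, 46.9 and 49.3 CPM against 50.7 to 53.5 CPM with vehicle, had a log2 fold change of -0.11 ± 0.06 (adjusted p = 0.213).

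The other members overlapped between treatments. E2f2 was at 11.02, 12.7, 15.1 and 8.74 CPM with Igfbp2 (log2 fold change -0.27 ± 0.22, edgeR adjusted p = 0.372) and E2f5 at 25.6, 21.2, 22.9 and 23.3 CPM (0.22 ± 0.11, adjusted p = 0.166). E2f7, E2f8, E2f3, E2f4 and Rb1 had log2 fold changes of -0.19, 0.05, 0.09, 0.13 and 0.06, with adjusted p from 0.210 to 0.860. The signs of E2f3, E2f4, E2f5, E2f8 and Rb1 turned when library totals replaced the TMM factors, where the median of all genes moved to -0.23. The sums of Y-linked genes differ between these groups, and Igfbp2 and that difference cannot be told apart.

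Within libraries the makeup of the classes with Igfbp2 overlapped that with vehicle. E2f1 and E2f2 made up 51.0% ± 4.07 (SD, n = 4) of activator TPM, E2f7 and E2f8 31.8% ± 4.18 of repressor E2F TPM, and Rbl1 26.9% ± 2.79 of pocket protein TPM. The ratio of activators to repressors was 0.474 to 0.537 with Igfbp2 and 0.481 to 0.528 with vehicle. The ratio of all E2F to all pocket protein TPM was 1.99 to 2.40 with Igfbp2 and 1.72 to 1.97 with vehicle, and did not overlap.

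In the same contrast, 0 of the 3 partner genes and 0 of the 8 DREAM and MuvB genes passed the test, beside 25.0% of all genes (14.2% higher and 10.7% lower). Among the 9 cyclins and kinases, the 3 D-type cyclins rose with Igfbp2 and no other gene passed in edgeR, while DESeq2 called 4 genes (3 higher). With library totals the list had 3 calls, of which 1 was higher. In limma on log2(TPM + 1) and on log2(TPM + 0.1) it had 3 calls each, of which 0 were higher. Over all genes, 200 of 6354 and 165 of 6519 calls were higher in those fits. Ccnd2 went from 686 ± 142 to 1235 ± 206 CPM (log2 fold change 0.85 ± 0.16, edgeR adjusted p = 0.00309), Ccnd1 from 533 ± 123 to 869 ± 205 CPM (0.71 ± 0.20, adjusted p = 0.0207) and Ccnd3 from 56.9 ± 4.62 to 76.6 ± 6.06 CPM (0.43 ± 0.10, adjusted p = 0.00945). Values of Ccnd1 overlapped between the treatments, at 398 to 692 CPM with vehicle and 637 to 1135 CPM with Igfbp2. Ccnd3 was named after its value was seen. Of the 7 CDK inhibitors, Cdkn2b (from 9.40 ± 1.68 to 20.3 ± 2.89 CPM, log2 fold change 1.11) and Cdkn1a (from 138 ± 10.5 to 288 ± 15.8 CPM, 1.06) rose and 0 fell. With library totals the inhibitor list had 4 calls, of which 2 were higher, and in limma on log2(TPM + 1) 3, of which 1 was higher. In edgeR with TMM scaling, cyclins that activate and inhibitors that block the kinases of pocket proteins were thus both among the genes that rose.

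Of the 34 G1/S targets, 3 fell and 0 rose with Igfbp2, where 10.7% of all genes fell and 14.2% rose. The median log2 fold change of these targets was -0.12. The genes that fell were the thymidylate synthase Tyms (fell by 0.66), the primase subunit Prim1 (fell by 0.48) and the histone methyltransferase Ezh2 (fell by 0.35), the last named after its value was seen. Of the 24 G2/M targets, 0 passed in edgeR and 1 in DESeq2 (median -0.11), with log2 fold changes from -0.54 for the motor protein Kif11 to 0.14 for Mki67. With only the 8 Ncf1-/- libraries in the fit, 9 of the G1/S and 8 of the G2/M genes passed, all lower with Igfbp2, while the calls over all genes went from 3923 to 5709. With the animal as a block 6 and 8 passed, beside 5434 of all genes. With library totals 12 and 7 passed, all lower, as did 2 of the 3 partner and 3 of the 8 DREAM and MuvB genes, beside 5906 of all genes, of which 648 were higher. In limma on log2(TPM + 1), 18 and 19 passed, as did 6 of the 8 DREAM and MuvB genes, all lower. Of all genes 6354 passed in that fit, of which 200 were higher. On log2(TPM + 0.1) 16 and 18 passed, and without the short structural RNAs 5 and 1, all lower. Of the 6 apoptotic targets tested, Pmaip1 (0.62, edgeR adjusted p = 0.00418) and Bbc3 (0.36, adjusted p = 0.0497) rose, beside 14.2% of all genes. With library totals 1 gene of that list passed and 0 were called higher.

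Igfbp2-treated Ncf1-/- NSCs were then compared with WT NSCs, which are the same WT libraries as above. Y-linked genes summed to 7.79 to 9.18 CPM with Igfbp2 and 106.8 to 118 CPM in WT replicates 1 to 3, and Xist differed as well. For those libraries, genotype with Igfbp2 and that difference cannot be told apart. Of the 10 members, 8 passed the test, beside 62.4% of all genes, with 6 higher (31.6% of all genes) and 2 lower (30.8% of all genes). The median log2 fold change was 1.05 over the members and -0.01 over all genes. Without WT replicate 4 the count was 8. E2f1 was 4.32-fold higher than in WT (log2 fold change 2.11 ± 0.19, edgeR adjusted p = 1.37e-06), E2f5 1.75-fold (0.81 ± 0.11, adjusted p = 4.58e-05) and Rbl1 2.96-fold (1.57 ± 0.12, adjusted p = 3.78e-07). E2f2, E2f7 and E2f8 rose by 1.30, 1.43 and 1.47 on the log2 scale. Rbl2 fell by 0.33 on the log2 scale (standard error 0.06, adjusted p = 0.000474), and Rb1, at 30.8, 37.5, 36.6 and 39.8 CPM against 45.2 to 61.3 CPM in WT, fell by 0.50 (standard error 0.14, adjusted p = 0.00884). Values of 8 members did not overlap (54.3% of all genes), 6 being higher (27.8% of all genes) and 2, Rb1 and Rbl2, lower (26.6% of all genes). E2f3 and E2f4 had log2 fold changes of -0.13 ± 0.11 (adjusted p = 0.348) and 0.03 ± 0.07 (adjusted p = 0.763). All 34 G1/S and all 24 G2/M targets were higher than in WT here also, with medians of 1.42 and 1.76. Without WT replicate 4, 32 of the G1/S and 24 of the G2/M genes passed the test. DESeq2 called 33 and 24, and limma on log2(TPM + 1) called 26 and 24.

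Gene-level transcript lengths, which RSEM weights by the share of each isoform, were compared as a readout that the count test does not use. E2f4 has a single length, and for the other 9 genes 27 exact permutation tests were run, of which 0 passed after adjustment. The largest separation was that of E2f7, at 4258 ± 228 bases with vehicle, 3525 ± 258 bases in WT and 3727 ± 141 bases with Igfbp2 (SD, n = 4). The vehicle libraries lay above those of both other groups (exact p = 0.0286 for each, two-sided, the smallest possible, adjusted p = 0.386). For Rbl2 the mean length was 4061 ± 94.5 bases with vehicle, 4334 ± 195 bases in WT and 4283 ± 151 bases with Igfbp2 (exact p = 0.0571 for vehicle against each, adjusted p = 0.386).

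Across the 12 libraries, the genes with the pattern most like that of E2f1 were, by Pearson's r of log2 CPM over the 11172 genes whose mean reached 5 CPM, Rnf26 (0.990), Wee1 (0.987), Klf4 (0.985), Adam12 (0.983) and Mthfd1l (0.983). For Rbl2 they were Gdap1l1 (0.975), Zfp3 (0.971), Ccdc13 (0.970), 2310045N01Rik (0.969) and Sncaip (0.969). For E2f4 the likeness was lower, with Wrnip1 (0.876), Dnal4 (0.838), Bcl2l1 (0.834), Rbm38 (0.831) and Rrs1 (0.823). These coefficients describe the 12 libraries, which fall into groups that differ in genotype, and carry no test.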

How the data were processed

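RNA of 12 NSC cultures, 4 per group, was sequenced after depletion of ribosomal RNA. Per the submitters' processing notes, the authors used Bowtie2 and RSEM with GRCm38; versions and annotation release are not given in the sources used here. The authors deposited per library RSEM's expected count per gene, not normalized, with TPM and a transcript length per gene. The merged table holds a score of the authors that equals TPM times the number of transcripts (within 1% for 100% of values with a TPM of at least 1) and was used only for symbols. FPKM columns were not used. Expected counts (15.9% not whole) were rounded.

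The filterByExpr function over the 3 groups kept 15706 genes (99.9% of counts), TMM factors were computed, and edgeR 4.0.16 (R 4.3.3) fitted its quasi-likelihood model to all 12 libraries, each group having its own mean. Genes were called at a Benjamini-Hochberg adjusted p under 0.05 over all genes tested. Tested on simulated data for vehicle-treated Ncf1-/- against WT with 15427 genes, the fit called 197 of 200 changed genes and 7 others. All changed genes were given a log2 fold change of the same large size, and every gene the same dispersion. Far fewer genes changed than were called in the data. The recovery therefore does not bear on small differences, such as that of Rbl2 or those of the members between Igfbp2 and vehicle. At this depth, log2 fold changes of vehicle against WT had a median standard error of 0.141. Alternatives were DESeq2 1.42.0, limma 3.58.1 on log2(TPM + 1) and log2(TPM + 0.1), TPM without 5 short structural RNAs, library totals, other filters, only the groups compared, each library left out, and the animal as a block. Same-animal pairs of Ncf1-/- cultures, given by the study's sample sheet, had deviations that correlated at -0.07 to 0.03, against -0.25 to 0.26 for the 12 other pairs. Per the study's methods the cells of each pup were grown separately, which the labels do not state. Every vehicle library held both Y-linked RNA (105 to 116 CPM) and Xist (72.3 to 87.8 CPM). Whether each of these libraries came from 1 separate pup is therefore not settled here. The p-values measure the spread between cultures, which need not be the spread between animals. Counts of every 2 replicates of a group differed by more than sampling noise (chi-square per degree of freedom of at least 4.64). All fold changes of CPM are fitted values, and their errors cover the spread between libraries.

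The members, lists and tests were chosen with earlier results of these data known. Named genes are all members, the 2 highest and 2 lowest of each pathway list in 2 comparisons, and the 5 genes most like E2f1, E2f4 and Rbl2. Not every gene that this rule selects is reported here. Neuronal markers summed to 605 to 781 CPM in WT, 489 to 555 CPM with vehicle and 441 to 470 CPM with Igfbp2, microglia markers to 19.6 to 34.7, 39.3 to 41.4 and 37.2 to 46.6 CPM (7 of 12 with at most 3 counts in every library), and mesenchymal and endothelial markers to 13.9 to 30.1, 12.5 to 16.4 and 25.9 to 28.7 CPM. Coordinates are from GENCODE M21 and promoter sequences from RefSeq (GRCm38.p6).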

Additional observations from a re-analysis of the deposited data

Results flagged for a closer look

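Among 30 sets of 4 library values (10 members in 3 groups), 1 held a library that stood apart from the other 3 by Dixon's ratio of gap to range. E2f3 in WT replicate 3 was at 30.2 CPM, the lowest of its group, with the nearest WT library at 38.8 CPM, so that the gap was 0.832 of the range (just above the 95% critical value for 4 values). Chance alone gives such a library in about 5% of sets.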

How the results depend on the processing

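Against WT, the rise of E2f1, E2f2, E2f7, E2f8 and Rbl1 and the fall of Rb1 kept their direction and their call in every alternative run, for both Ncf1-/- groups, and so did the rise of E2f5 with vehicle. For Rb1 with vehicle against WT, the adjusted p over these fits reached 0.0495, just under the threshold. The count of members called was 7 to 9 for vehicle and 8 to 10 for Igfbp2 against WT, and 8 to 9 and 8 with a library left out. E2f5 with Igfbp2 against WT missed the threshold in limma on log2(TPM + 1) (0.33, adjusted p = 0.117) and on log2(TPM + 0.1) (0.38, adjusted p = 0.107). Rbl2 with vehicle against WT missed it with library totals, without a filter on low counts (-0.20, adjusted p = 0.0663) and in limma on log2(TPM + 1) (-0.07) and log2(TPM + 0.1) (-0.07). For Igfbp2 against vehicle the count of 0 members became 2 with library totals and with the filter at 5 CPM (Rbl1 and Rbl2, both lower), 1 with only the groups compared (Rbl1), 3 in limma on log2(TPM + 1) and 3 on log2(TPM + 0.1) (E2f2, Rbl1 and Rbl2, all lower), 1 without the short structural RNAs (Rbl2), 2 with the animal as a block (E2f1 and Rbl1), and 0 to 1 with a library left out (Rbl1 without WT replicate 3, adjusted p = 0.0469). The fit with the block held only the 8 Ncf1-/- libraries and changed no other call of a member. In it, 6 of the G1/S and 8 of the G2/M targets were called lower, beside 5434 of all genes. The same libraries without the block gave 9, 8 and 5709, and Rbl1 was called there too. The fit of all 12 libraries gave 3, 0 and 3923.

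Scaling moved the median of all genes, for vehicle against WT, Igfbp2 against vehicle and Igfbp2 against WT, from 0.02, 0.04 and -0.01 to 0.19, -0.23 and -0.10 with library totals, 0.04, -0.30 and -0.25 with log2(TPM + 1), 0.07, -0.42 and -0.40 with log2(TPM + 0.1), and -0.08, -0.10 and -0.23 without the short structural RNAs. With library totals, 6024 of 9183 called genes were higher with vehicle than in WT (4545 of 8978 with TMM) and 648 of 5906 with Igfbp2 than with vehicle (2238 of 3923 with TMM). In limma on log2(TPM + 1) the latter was 200 of 6354, on log2(TPM + 0.1) 165 of 6519 and without the short structural RNAs 711 of 3162.

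In 44 of 610 refits of single members the sign turned, and in 21 a call was gained and in 6 lost. With library totals E2f4 with vehicle against WT was 0.075, and for Igfbp2 against vehicle E2f3 was -0.18, E2f4 -0.14, E2f5 -0.057, E2f8 -0.22 and Rb1 -0.21. In limma on log2(TPM + 1) that contrast gave E2f1 -0.041, E2f3 -0.36, E2f4 -0.32, E2f5 -0.24, E2f8 -0.40 and Rb1 -0.34, and on log2(TPM + 0.1) E2f1 -0.047, E2f3 -0.41, E2f4 -0.35, E2f5 -0.26, E2f8 -0.46 and Rb1 -0.39. Without the short structural RNAs it gave E2f3 -0.086, E2f4 -0.031, E2f8 -0.14 and Rb1 -0.067. E2f8 was also -0.010 with the filter at 5 CPM and -0.00137 with the block. With a library left out, E2f8 ran from -0.11 to 0.17, Rb1 from -0.015 to 0.24 and E2f3 from -0.021 to 0.20. E2f4 with Igfbp2 against WT was -0.064 with library totals, -0.022 with the filter at 5 CPM, -0.0030 with only the groups compared, -0.37 on log2(TPM + 1), -0.40 on log2(TPM + 0.1), -0.25 without the short structural RNAs (adjusted p = 0.0318, called lower) and -0.082 to 0.075 with a library left out. E2f3 with Igfbp2 against WT was called lower in the limma fits (-0.61, -0.69 and -0.53). Transcript lengths gave 0 calls without WT replicate 4 too. Apart from the scaling shifts above, the causes were not tested. The lowest counts behind a member were those of E2f2 in WT, at 84 to 131.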
